A study of Mus musculus with 6 samples.

Results

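Il22ra2 encodes a secreted binding protein for interleukin-22, and it was examined here with 7 other genes of the class II cytokine receptor family: Il22ra1, Il20ra, Il20rb, Il10ra, Il10rb, Ifngr1 and Ifngr2. These 8 genes are 8 of 19937 measured in mouse haematopoietic stem and progenitor cells transformed by HoxA9 and Meis1, a cell line called A9M and used as a model of acute myeloid leukaemia. Both groups carried the HoxA9 and Meis1 genes and grew in serum-containing medium supplied with stem cell factor, interleukin-6 and interleukin-3. One group received the solvent DMSO for 5 days (3 arrays) and the other UNC0638 for 5 days (3 arrays). UNC0638 is a chemical inhibitor of G9a and GLP, the products of Ehmt2 and Ehmt1, which methylate lysine 9 of histone H3, and its dose is not given in the sources used here. The study asked which transcripts depend on the methyltransferase activity of G9a, and UNC0638 against DMSO is the comparison it made. Nothing in the labels says whether the numbered samples came from separate cultures or separately transformed lines, so errors and p-values measure only how these samples vary, and that variation may be technical. Il22ra2 was chosen by its measured difference between the groups, the highest of all genes on the scale used here, and the other 7 as its relatives, with their values already known. Each gene is represented by its probe set with the highest mean over the 6 arrays. Values of these 8 genes in this comparison are therefore a description, with no test drawn from them.

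Class II cytokine receptors are transmembrane chains that work in pairs, a ligand-binding chain with a partner chain, and signal through JAK kinases and STAT transcription factors. Interleukin-22 binds Il22ra1 paired with Il10rb, interleukin-10 binds Il10ra paired with Il10rb, interleukins 19, 20 and 24 use Il20rb with Il20ra (for interleukins 20 and 24 also with Il22ra1), and interferon-gamma uses Ifngr1 with Ifngr2. The Il22ra2 protein has the ligand-binding part without a membrane anchor, so it holds interleukin-22 in solution as a decoy. Interleukin-22 acts mainly on epithelial cells, whereas dendritic cells are a known source of the binding protein.

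Ifngr1, Il22ra2 and Il20ra follow one another in this order among the measured genes of mouse chromosome 10. Of the 8 genes, 5 matched an entry in the RefSeq promoter table of GRCm38.p6, as did 9 of the 12 members of the whole family. Il22ra2, Il10ra and Il10rb had no entry. The promoters of the genes on either side of Il22ra2 are shown because they belong to its nearest measured neighbours, whose differences are set against that of Il22ra2 further on. Each is the 250 bases before the start of the gene, from 5′ to 3′ on the + strand, with CG dinucleotides, the sites of DNA methylation, in capitals. Ifngr1 is taken from chr10:19591699-19591948 and Il20ra from chr10:19712337-19712586.
Ifngr1: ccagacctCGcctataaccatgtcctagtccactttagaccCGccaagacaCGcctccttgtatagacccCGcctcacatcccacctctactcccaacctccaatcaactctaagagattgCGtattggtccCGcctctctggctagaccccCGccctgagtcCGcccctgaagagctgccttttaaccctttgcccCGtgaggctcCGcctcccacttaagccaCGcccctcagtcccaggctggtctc
Il20ra: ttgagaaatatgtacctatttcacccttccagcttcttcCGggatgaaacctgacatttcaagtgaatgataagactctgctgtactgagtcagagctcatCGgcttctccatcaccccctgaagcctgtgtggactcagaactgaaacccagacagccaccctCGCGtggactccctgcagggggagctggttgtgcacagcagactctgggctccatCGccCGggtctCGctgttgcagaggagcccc
The window before Ifngr1 held 11 CG dinucleotides and that before Il20ra held 7, against a median of 6 and quartiles of 2 and 16 over 32851 windows of the same length in the table. TTCNNNGAA, the letters of a STAT binding motif, reads the same on both strands and was in neither window, nor in those of Il22ra1, Il20rb or Ifngr2. It was in 7.02% of all windows, and among the 9 family members in that of Ifnar2 alone. No match says only that these letters are not in this window.

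Median intensities of the 6 arrays lay between 50.4 and 54.9 over 34760 probe sets, with lower quartiles between 20.9 and 22.8. The myeloid enzyme gene Mpo, one of 6 markers fixed for the labelled cells, had a mean DMSO intensity of 6031 ± 191, the progenitor gene Cd34 one of 1615 ± 61.1 and the progenitor receptor gene Kit one of 351 ± 7.66 (SD, n = 3 each), and 0 of 6 such markers passed the limma test (3 at an unadjusted p under 0.05, all higher), though the integrin gene Itgam (0.46, limma adjusted p = 0.0709) did with quantile normalization (0.0494). Neither inhibited enzyme passed: Ehmt2 had a log2 difference of -0.25 (limma adjusted p = 0.293) and Ehmt1 one of -0.040 (limma adjusted p = 0.92). Ehmt2 had intensities of 112, 137 and 119 in DMSO and 98.7, 99.8 and 103 in UNC0638 (limma unadjusted p = 0.0234). Its groups did not overlap, where 7.4% of all genes were lower without overlap. Hoxa9 (-0.12, limma adjusted p = 0.686) and Meis1 (0.0036, limma adjusted p = 0.993) did not pass either. An inhibitor of enzyme activity need not alter the transcript, so the levels of Ehmt2 and Ehmt1 do not check the treatment labels. Over all genes tested with limma, 134 passed at an adjusted p under 0.05, 74 higher and 60 lower after UNC0638. An unadjusted p under 0.05 was found for 12.7% of all genes (6.47% higher and 6.21% lower), the share against which such counts in the lists stand.

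Il22ra2 was the member whose level differed most. Its intensity was 23.9, 14.5 and 21.6 on DMSO arrays 1, 2 and 3 and 158, 118 and 222 on UNC0638 arrays 1, 2 and 3. All 3 UNC0638 arrays lay above all 3 DMSO arrays, with a wide gap between the groups and the highest UNC0638 array at close to double the lowest. The means were 20.0 ± 4.90 in DMSO and 166 ± 52.7 in UNC0638 (SD, n = 3 each), a ratio of 8.30. On the log2 scale of intensity plus 16, the difference was 2.31 with an SE of 0.20. The added 16 shrinks differences of dim genes, and the difference was 2.97 when 1 was added and 1.43 when 64 was added. In DMSO the probe set was dim: 28.5%, 16.3% and 25.3% of all probe sets on the 3 arrays had a lower value, compared with 72.2%, 67.1% and 77.1% on the UNC0638 arrays. The table holds no background measure, so whether the DMSO level is above background was not tested, and a ratio against such a low level rests on few units of intensity. In these bulk samples more cells of a type that express a gene and more RNA of it per cell cannot be told apart, nor can fewer cells and less RNA per cell.

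**Figure D1:**
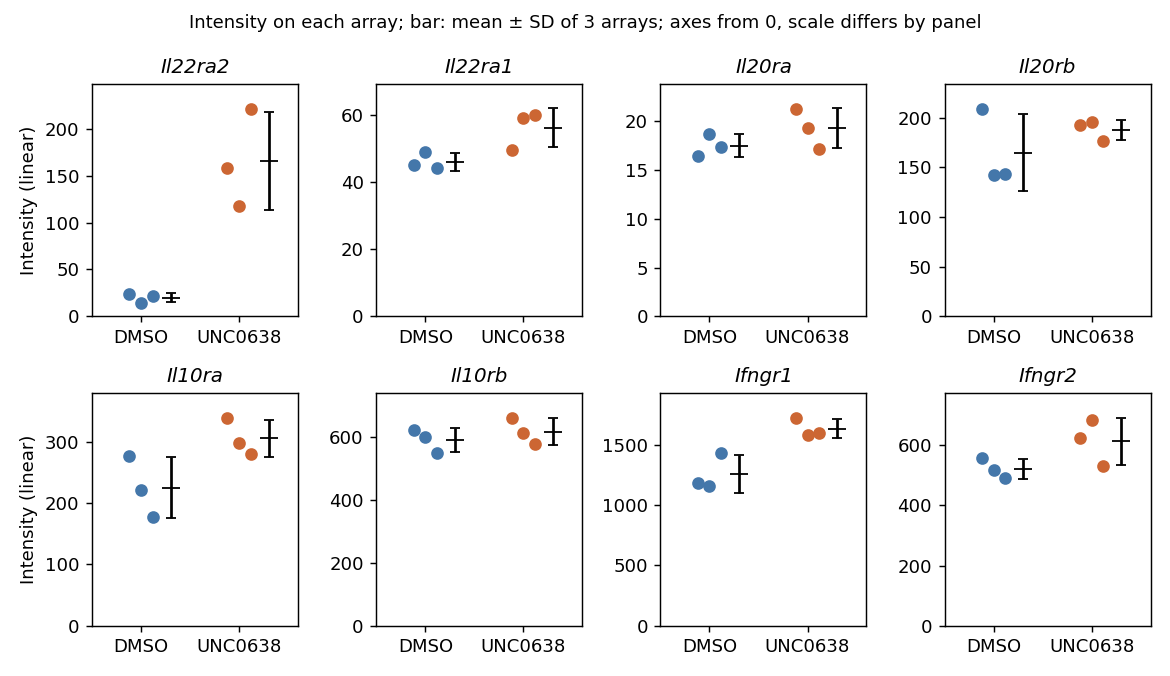
Intensity (linear scale, axis from 0, a separate scale for each gene) of the 8 receptor genes on each of 3 DMSO arrays (blue) and 3 UNC0638 arrays (orange), with the mean and SD beside them. Il22ra2 goes from 14.5 to 23.9 in DMSO to 118 to 222 in UNC0638, whereas the groups of Il20ra, Il20rb, Il10rb and Ifngr2 overlap.

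Among the 8 genes, 1 passed the limma test, which is Il22ra2, the gene chosen for its difference. Over all genes 0.672% passed, and nothing is read from the count among the 8. The groups did not overlap for 4 of the 8, all higher after UNC0638 (Il22ra2, Il22ra1, Il10ra and Ifngr1), where 17% of all genes did not overlap in either direction and 9.59% were higher and 7.4% lower without overlap. All 8 differences were above 0, as were 53.9% of all genes, and their median was 0.22 against 0.012 over all genes. The differences of the 7 genes other than Il22ra2 ran from 0.06 to 0.43.

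Il22ra1 and Il10rb together carry the interleukin-22 signal. Il22ra1, the chain that binds interleukin-22 on the cell surface, had intensities of 45.1, 49.1 and 44.2 in DMSO and 49.7, 59.3 and 60.0 in UNC0638. The groups were separated by a narrow margin, since DMSO array 2 and UNC0638 array 1 were nearly level. The means were 46.1 ± 2.61 and 56.3 ± 5.76 (SD, n = 3 each), and the log2 difference was 0.22 with a 95% interval of 0.02 to 0.42. A second probe set of Il22ra1, dimmer than the first, had 19.5 ± 3.22 in DMSO and 20.2 ± 1.53 in UNC0638, a log2 difference of 0.03 (95% interval -0.18 to 0.24), so the separation was not seen there. Il10rb, the partner chain shared by the receptors for interleukins 10 and 22, had 621, 597 and 547 in DMSO and 659, 612 and 576 in UNC0638. Its groups overlapped, and the log2 difference was 0.06 (95% interval -0.14 to 0.26).

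Il10ra, the ligand-binding chain for interleukin-10, a cytokine that restrains macrophage activation, had intensities of 277, 221 and 178 in DMSO and 339, 298 and 280.3 in UNC0638. DMSO array 1 lay just below UNC0638 array 3, and the DMSO arrays were spread more widely than the UNC0638 arrays. The means were 225 ± 49.4 and 306 ± 30.1 (SD, n = 3 each), a ratio of 1.36 and a log2 difference of 0.43 (SE 0.15, 95% interval 0.09 to 0.77). This was the second-largest difference of the 8, and it was 0.58 without DMSO array 1 and 0.28 without DMSO array 3.

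Il20ra and Il20rb, chains of the receptors for interleukins 19, 20 and 24, showed overlapping groups. Il20ra had 16.4, 18.7 and 17.4 in DMSO and 21.3, 19.3 and 17.2 in UNC0638, all below the lower quartile of their array. Its log2 difference was 0.07 (95% interval -0.11 to 0.25), and at so low a signal a larger change in transcript could be missed. Il20rb, the chain common to these receptors, had 209, 142 and 143 in DMSO and 192, 195 and 176 in UNC0638. DMSO array 1 was the highest of the 6, and the log2 difference was 0.19 (95% interval -0.12 to 0.51). Of the other probe sets of Il20rb, one had 65.8 ± 2.92 in DMSO and 81.6 ± 12.6 in UNC0638 (log2 difference 0.25) and the other 74.8 ± 17.2 and 75.5 ± 5.13 (0.03).

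Ifngr1, the ligand-binding chain for interferon-gamma, had intensities of 1183, 1158 and 1437 in DMSO and 1725, 1579.6 and 1602 in UNC0638. All UNC0638 arrays were higher than all DMSO arrays, with DMSO array 3 nearest to them. The means were 1259 ± 154 and 1636 ± 78.4 (SD, n = 3 each), a ratio of 1.30 and a log2 difference of 0.38 (SE 0.10, 95% interval 0.15 to 0.61). Its signalling partner Ifngr2 had 556, 517 and 489.9 in DMSO and 623, 685 and 530.4 in UNC0638. UNC0638 array 3 lay within the DMSO range, and the log2 difference was 0.22 (95% interval -0.02 to 0.47).

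The 4 remaining members of the family are those left out when the receptor genes above were chosen. That choice was made with values already known, so these 4 are no unselected comparison. Of them, 0 passed the limma test (0 at an unadjusted p under 0.05). With 0.672% of all genes passing, nothing is read from that count. Ifnar1 and Ifnar2, the chains of the type I interferon receptor, had log2 differences of 0.073 and 0.040 (limma adjusted p = 0.793 and 0.94). Ifnlr1, the ligand-binding chain for interferon-lambda, was at -0.040 (limma adjusted p = 0.902), and F3, the coagulation receptor tissue factor, which shares the family's fold, was at -0.081 (limma adjusted p = 0.824). Their groups overlapped for all 4. The intervals reach from -0.31 for F3 to 0.30 for Ifnar2.

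**Figure D2:**
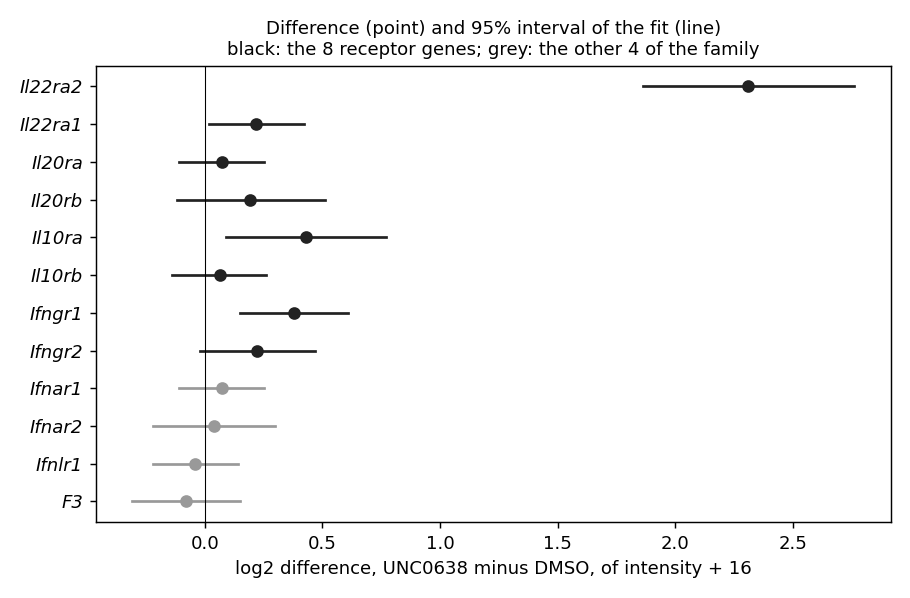
Log2 difference of intensity plus 16, UNC0638 minus DMSO, for the 8 receptor genes (black) and the other 4 of the family (grey), with the 95% interval of the fit over 3 arrays a group. Il22ra2 stands at 2.31 and every other gene between -0.081 and 0.43.

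The 10 measured genes nearest to Il22ra2, 5 on each side in the gene table, comprise Ifngr1, Il20ra and 8 genes outside the class II receptor family. Since Il22ra2 was chosen as the highest difference of all genes, smaller values in its neighbours follow from that choice and nothing is read from them. Of the 8 outside the family, 0 passed the limma test, against 0.672% of all genes, and 1 had an unadjusted p under 0.05, Perp. On the side of Ifngr1, Olig3, a neural transcription factor gene, had a log2 difference of 0.038 (limma adjusted p = 0.917) and Tnfaip3, which encodes the NF-kappa-B inhibitor A20, one of 0.0012 (limma adjusted p = 0.998). Perp, a membrane protein gene induced by p53, had intensities of 316, 282 and 293 in DMSO and 383, 363 and 394 in UNC0638. Its groups did not overlap, yet its log2 difference of 0.34 did not pass (SE 0.080, limma adjusted p = 0.119). Gm4922, the farthest on that side, was at 0.0092. On the side of Il20ra, the sugar transporter relative Slc35d3 was at -0.26, the peroxisomal import receptor Pex7 at 0.012, the stress kinase gene Map3k5 at 0.21 and the microtubule-binding gene Map7 at -0.25. Limma adjusted p for these 4 ran from 0.434 for Map7 to 0.991 for Pex7. The 8 neighbours outside the family had a median difference of 0.011, where the median of all genes was 0.012. In the stretch from Gm4922 to Map7 the gene table lists 21 genes, of which 10 had no probe set with a single gene name, and 0 of those 10 were protein-coding.

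**Figure D3:**
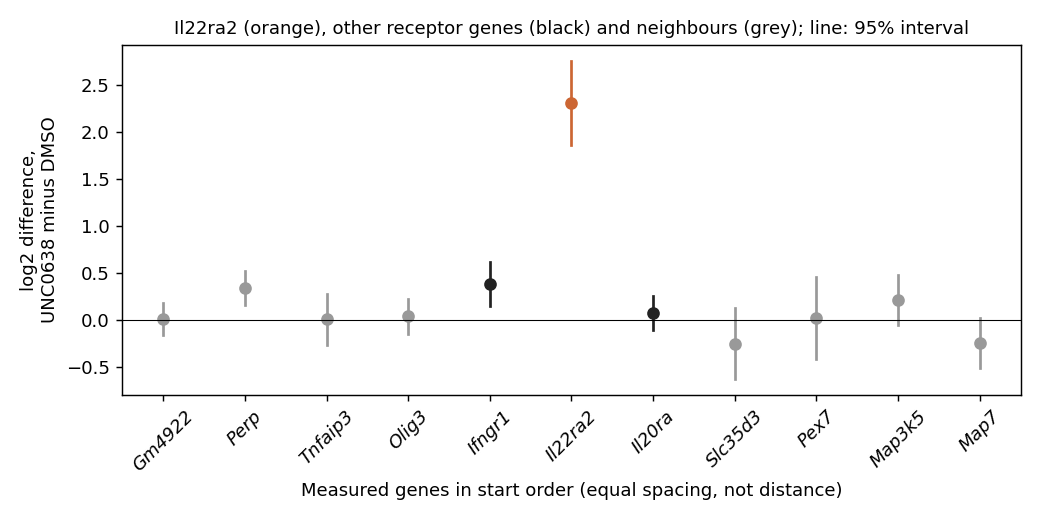
Log2 difference, UNC0638 minus DMSO, with its 95% interval for Il22ra2 (orange), the receptor genes beside it (black) and the other neighbours (grey), in start order along chromosome 10 and equally spaced rather than to distance. Il22ra2 is at 2.31 and its neighbours lie between -0.26 and 0.38.

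Ligands, signalling genes and targets of these receptors were compared in the same way. Over all genes 0.672% passed, so nothing is read from a count of 0 in these short lists. Of 12 listed ligand genes 9 had a probe set of their own, and 0 passed the limma test (1 at an unadjusted p under 0.05), with a median difference of 0.058. Il22, the ligand that Il22ra2 binds, was not analysed here. Il10 had intensities of 25.8, 22.7 and 24.2 in DMSO and 30.7, 32.7 and 29.3 in UNC0638. These groups did not overlap, but the signal was dim and the log2 difference of 0.22 did not pass (SE 0.077, limma adjusted p = 0.269). Ifng, the ligand of Ifngr1, was at 0.076 (limma adjusted p = 0.799). Of 17 measured genes of JAK kinases, STAT factors and their inhibitors, 0 passed (3 at an unadjusted p under 0.05, all higher), with a median of 0.0049. The largest difference was that of Socs3, a feedback inhibitor of STAT3 signalling, which had 259.6, 223 and 189 in DMSO and 292, 287 and 282 in UNC0638. Its UNC0638 arrays were close together and above all DMSO arrays (log2 difference 0.35, SE 0.11, limma adjusted p = 0.226).

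Among 16 genes known as STAT3 targets of interleukins 10 and 22, 1 rose and 0 fell, where 0.371% of all genes rose, and 5 had an unadjusted p under 0.05. The median difference was 0.099, against 0.012 over all genes. The gene that rose was Il1rn, the secreted antagonist of the interleukin-1 receptor. Its intensity was 289, 271 and 261 in DMSO and 410.3, 405 and 461 in UNC0638, with every UNC0638 array above every DMSO array. The log2 difference was 0.61 (SE 0.086, limma adjusted p = 0.0262). Its call was lost with each of the 6 arrays left out in turn (adjusted p 0.0528 to 0.0946), with each array scaled to a common median (0.0586) and with the replicate number as a block (0.0754). Reg3b and Reg3g, antimicrobial lectins that interleukin-22 induces in epithelium, were dim in both groups, with log2 differences of -0.028 and 0.12 (limma adjusted p = 0.942 and 0.662). Of 17 measured genes induced by interferon-gamma, 0 passed (1 higher and 1 lower at an unadjusted p under 0.05), with a median of 0.0027. Irgm1, an immunity-related GTPase, had the largest difference, from 215 ± 63.4 to 131 ± 14.0 (SD, n = 3 each, log2 difference -0.62, SE 0.19, limma adjusted p = 0.201).

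**Figure D4:**
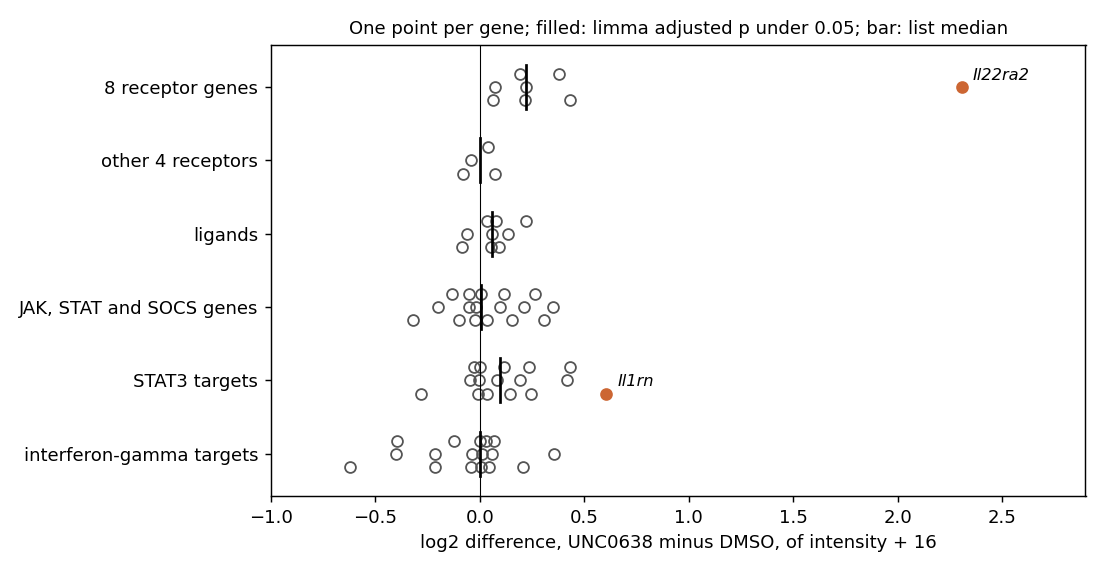
Log2 difference, UNC0638 minus DMSO, of each measured gene in 6 lists of receptors, ligands, signalling genes and targets, with filled points for an adjusted limma p under 0.05 and a bar at each list median. The filled points are Il22ra2 at 2.31, which was chosen for its difference, and Il1rn at 0.61.

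Genes whose pattern over the 6 arrays was most like that of Il22ra2 were found by Pearson's r on the log2 scale. With 6 arrays in 2 groups, r mostly reflects the gap between the groups, and no test was made. The 5 highest were Rgs2 (0.997), a regulator of G protein signalling, Klrb1f (0.995), a C-type lectin-like receptor with near relatives whose signal its probes could share, the zinc finger gene Tshz1 (0.992), Itgax (0.992), the integrin CD11c, and the organic anion transporter Slco2b1 (0.992). Rgs2 had intensities of 406, 392 and 411 in DMSO and 679, 618 and 716 in UNC0638. Klrb1f had 668, 586 and 715 in DMSO and 1299, 1202 and 1549 in UNC0638. In both, as in Il22ra2, array 2 was the lowest of each group and UNC0638 array 3 the highest of all. Choosing genes by r over these same arrays favours such a shared order, so nothing is read from it. The 5 lowest r were those of Snapc4 (-0.993), a subunit of the complex that activates small nuclear RNA genes, the nucleolar protein gene Lyar (-0.992), the mitochondrial amidotransferase subunit Qrsl1 (-0.991), the ubiquitin ligase scaffold Cul2 (-0.991) and the zinc finger gene Zbtb12 (-0.99). Lyar had 1291, 1363 and 1192 in DMSO and 811, 879 and 713 in UNC0638, with array 2 the highest of each group, an order favoured in the same way.

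Markers of cell types, some of which make or respond to interleukin-22 or make its binding protein, were set beside these values. Of 10 dendritic cell markers, 1 rose, where 0.371% of all genes rose. This was Itgax, from 48.4 ± 4.37 to 93.7 ± 6.09 (SD, n = 3 each, log2 difference 0.77, SE 0.086, limma adjusted p = 0.0118), a call lost without UNC0638 array 1 (0.0682). The other 9 did not pass, and 2 of the 10 had an unadjusted p under 0.05, both higher, Itgax and the chemokine receptor Ccr7 (56.0 ± 4.16 to 67.3 ± 4.07, limma adjusted p = 0.336). The groups did not overlap for 3, Itgax, Ccr7 and Xcr1, all higher, where 9.59% of all genes were higher without overlap. Differences were above 0 for 8 of the 10, many of them close to 0. H2-Ab1 was at -0.22 (limma adjusted p = 0.551) and Zbtb46 at -0.037 (limma adjusted p = 0.934). The summed intensity of the list was 646 to 714 in DMSO and 676 to 765 in UNC0638. Of 5 eosinophil markers 0 passed (2 higher and 1 lower at an unadjusted p under 0.05). The groups did not overlap for 4 of them, 3 higher and 1 lower, where 17% of all genes did not overlap. The lectin Siglecf had the largest difference (116 ± 29.4 to 218 ± 39.6, limma adjusted p = 0.0808), and passed without the dimmest 40% of genes (0.0381), with the trended prior (0.0452) and without DMSO array 1 (0.0405), whereas the granule gene Epx was at -0.50 (limma adjusted p = 0.105). The sum was 5032 to 6315 in DMSO and 5251 to 6039 in UNC0638, most of it from Prg2 (means of 5047 and 5155). Of 8 measured markers of T, NK and innate lymphoid cells 0 passed (2 at an unadjusted p under 0.05). The interleukin-7 receptor Il7r had the largest difference among them (138 ± 51.6 to 243 ± 38.5, limma adjusted p = 0.206). The list summed to 262 to 359 in DMSO and 412 to 474 in UNC0638. Most of that gap is Il7r, the brightest of the list on every array (163, 78.6 and 172 in DMSO, 218, 224 and 288 in UNC0638). The median difference of the list was 0.066. None passed among 3 B cell markers (0 at an unadjusted p under 0.05, sums 82.3 to 84.1 and 79.2 to 99.4, Cd79a at 0.25), 6 of epithelium (0, sums 402 to 454 and 424 to 509, Krt8 at 0.23) and 4 of fibroblasts (1, sums 273 to 312 and 309 to 339.8, Pdgfrb at 0.21). Groups did not overlap for 2 of the 8 markers of T, NK and innate lymphoid cells, both higher. The same was so for 1 B cell, 1 fibroblast and 0 epithelial markers, again higher. No marker was listed at 0 on any array. The part of these cell types in the Il22ra2 difference was not tested.

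The difference of Il22ra2 kept its direction and its call in all 17 alternatives, which is again a description, and ran from 1.43 to 2.97. It stayed at 2.31 by construction with the mean of probe sets (Il22ra2 has 1), the trended prior and the replicate block. The same held for the filter on dim genes, which Il22ra2 passed through its UNC0638 values. With arrays left out in turn the difference of Il22ra2 lay between 2.09 without UNC0638 array 3 and 2.51 without UNC0638 array 2. Il10ra ran from 0.28 to 0.58, Ifngr1 from 0.32 to 0.48, Ifngr2 from 0.14 to 0.32 and Il22ra1 from 0.12 to 0.28 over 15 alternatives each.

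**Figure D5:**
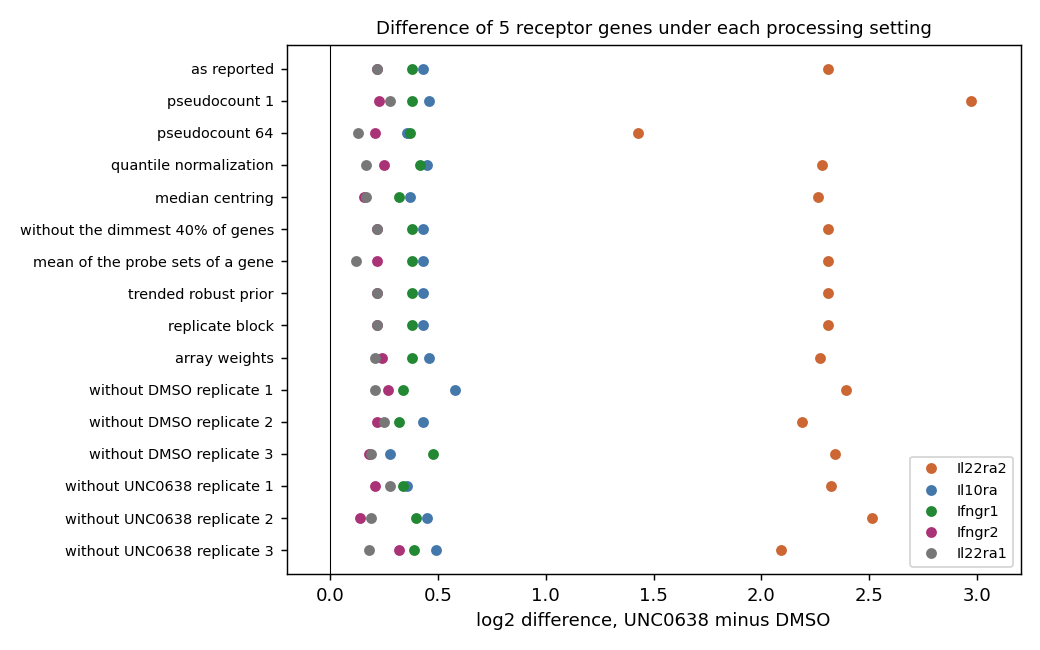
Log2 difference, UNC0638 minus DMSO, of 5 receptor genes as reported and under 15 alternative settings. Il22ra2 lies between 1.43 and 2.97 and the other 4 between 0.12 and 0.58.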

How the data were processed

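Total RNA was extracted with Trizol and biotinylated cRNA hybridised to Affymetrix mouse gene arrays, per the labels' protocols. The deposited values are 1 processed intensity per probe set and array on a linear scale, and the sources used here do not give the authors' summarisation and normalization. Of 34760 probe sets, 21640 had 1 gene symbol in the platform annotation, 1321 several and 11799 none; only the first were used. Symbols were looked up by Entrez number in a GRCm38.p6 gene table (21553 found, 0 changed), which also gave gene order. The probe set with the highest mean was kept for each of 19937 genes. No filter was applied.

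Intensities plus 16 were log2-transformed and fitted with limma 3.58.1 (R 4.3.3, lmFit and eBayes, group alone, prior degrees of freedom 4.47), p-values being adjusted by Benjamini-Hochberg over the 19937 genes and called at 0.05. The script was tested on simulated data. The alternatives were other pseudocounts, scalings, probe set rules, priors, array weights, a stricter threshold, a filter on dim genes, a replicate block and each array left out. The named genes are the receptors, the label checks, 10 neighbours of Il22ra2, the genes past the threshold or else with the largest difference in each list, and the 5 most and 5 least correlated genes. A few more, such as Ifng, Reg3b, Reg3g, Epx, Ccr7 and Hmox1, were named after their values were seen. Members and lists were chosen with earlier results of these data known. Plots were made in Python 3.11.15 (matplotlib 3.10.9).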

Additional observations from a re-analysis of the deposited data

How the results depend on the processing

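Of the 8 receptor genes 1 passed, and of the other receptors, ligands, signalling genes, interferon-gamma targets and neighbours 0 passed, in all 17 alternatives. The count over all genes, 134, was 49 with a pseudocount of 64, 73 with the replicate block, 18 at an adjusted p under 0.01 and 10 to 69 with an array left out: 67, 43 and 69 without DMSO arrays 1, 2 and 3 and 10, 31 and 40 without UNC0638 arrays 1, 2 and 3. It was larger without the dimmest 40% of genes (192) and with the trended prior (182). With each array scaled to a common median it was 96, and with every single-gene probe set tested 101. The remaining settings gave 127 to 139. Rises were 55.2% of the calls, and 38.5% with each array scaled to a common median, 65.3% with a pseudocount of 64 and 70% and 71% without UNC0638 arrays 1 and 2. The count of STAT3 targets, 1, was 2 with quantile normalization and with array weights, where the haem oxygenase gene Hmox1 passed as well (adjusted p = 0.0446 and 0.0486, against 0.0568). It was 0 with the common median, the replicate block, the threshold of 0.01 and each array left out (0 to 0). No sign was seen that the replicate numbers pair the arrays, and the labels do not say. Deviations of same-numbered arrays correlated at -0.0663, 0.111 and 0.0168 over genes, and those of differently numbered arrays at -0.129 to 0.11. The filter on dim genes left 7 of the 8 receptors, Il20ra being left out, and Il22ra2 passed it through its UNC0638 values.

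Signs turned in 23 of 652 alternatives for 7 of 44 named genes, all near 0. With the common median Ifnar2 was at -0.019, Gm4922 at -0.015, Tnfaip3 at -0.055, Pex7 at -0.042 and Meis1 at -0.056. With quantile normalization Gm4922 was at -0.019 and Olig3 at -0.0031, and with array weights Pex7 was at -0.0085. With arrays left out in turn, Ifnar2 ran from -0.043 to 0.15, Gm4922 from -0.017 to 0.032, Olig3 from -0.01 to 0.089, Ehmt1 from -0.093 to 0.0061, Meis1 from -0.0095 to 0.017, Tnfaip3 from -0.11 to 0.084 and Pex7 from -0.10 to 0.23. The cause was not tested. The number of arrays limits the precision.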
